A study of Mus musculus with 6 samples.

Results

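Heg1 is the gene of a single-pass, mucin-like membrane receptor, and 6 other genes were set beside it because their products bind the receptor or one another: Krit1, Ccm2, Pdcd10, Rap1a, Rap1b and Rasip1. The members were picked by name, with earlier results of the knockout comparison known, among them the lower Heg1 level in knockout neurons. Their knockout and wild-type values are therefore given as a description and not as a test. Of the 7 names, 6 have a row in a table of 31469 rows. No row is named Krit1 or Ccm1, its older name, and Krit1 was not analysed here. The 6 rows come from RNA sequencing of neurons that express parvalbumin, taken from the lumbar 4 dorsal root ganglion of mice, in 3 libraries with a parvalbumin-driven knockout of Dicer (KO) and 3 wild-type libraries (WT). All animals were C57BL/6 at postnatal day 21. Dicer is the enzyme that releases mature microRNAs from their hairpin precursors. The Cre allele acts where the parvalbumin gene is active, so cells that never express it are not targeted. The labels do not say whether the wild-type animals carried the Cre allele, how the neurons were collected, or whether the libraries of a group are from different animals. Any p-value thus sets the group difference against the spread between these samples, part of which may be technical.

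HEG1 sits in the plasma membrane, and its short cytoplasmic tail binds the FERM domain of KRIT1. KRIT1, CCM2 and PDCD10 form the CCM complex, named for cerebral cavernous malformations, the vascular lesions that loss of any of these human genes causes. The small GTPases RAP1A and RAP1B bring KRIT1 to cell junctions, and RASIP1 is an endothelial effector of RAP1 that binds HEG1. In endothelial cells and the heart, where most of this is known, the complex restrains the kinase MEKK3, its follower ERK5 and the transcription factors KLF2 and KLF4.

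The values are TPM (length-scaled transcript shares), estimated counts divided by transcript length and scaled to 1000000 per library, so levels can be compared between genes. Sequencing depth is not kept in TPM and is unknown here. The number of rows at 1 TPM or more was 13237 to 13960 per library. Correlations of log2 values between libraries were 0.949 to 0.973 within a group and 0.925 to 0.964 between groups. Dicer1 was at 24.0, 20.8 and 21.8 TPM in KO and at 36.7, 26.0 and 48.7 TPM in WT, a gap that did not pass limma (adjusted p = 0.104), and these values cover the whole gene, not an exon that may be deleted. Tubb3, Nefh, Nefl, Isl1, Pou4f1 and Slc17a7, genes of sensory neurons in general, summed to 27547 to 28137 TPM in KO and 25222 to 35317 TPM in WT, most of it Nefl. The sum hides the single genes. The groups did not overlap for 4 of these 6, where 28.9% of all rows did not, and 0 were called. Isl1 (means of 93.4 TPM in KO and 132.3 TPM in WT), Nefh and Slc17a7 were lower in KO. Pou4f1 was higher (95.3 TPM in KO and 85.9 TPM in WT). Of 5 markers of proprioceptors, the parvalbumin-positive neurons, all were detected in every library. Of these, 4 were called lower in KO, where 3.17% of all rows were. Their values stand with the other markers. Replicate 3 of each group stood apart in sex-linked transcripts, with Ddx3y at 32.7 TPM in KO and 33.3 TPM in WT, against 0.02 TPM or less in the other libraries, so the libraries of a group did not all come from 1 animal. Results without both of these libraries are given beside the Heg1 values.

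The promoter of Heg1 is shown because Heg1 is the member with the large difference. It spans 250 bases before to 50 after the transcription start at chr16:33684216-33684515 on the plus strand (RefSeq, GRCm38.p6). Capitals mark matches on either strand to 6 short motifs.
Heg1 promoter: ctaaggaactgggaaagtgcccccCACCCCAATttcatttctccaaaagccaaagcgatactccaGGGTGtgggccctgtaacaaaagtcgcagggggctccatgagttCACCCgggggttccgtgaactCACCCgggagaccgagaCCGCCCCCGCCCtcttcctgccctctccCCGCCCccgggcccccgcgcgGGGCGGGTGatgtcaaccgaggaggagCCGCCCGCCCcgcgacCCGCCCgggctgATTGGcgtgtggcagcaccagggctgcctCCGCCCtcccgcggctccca
The window is 69.0% G and C, with 25 CpG pairs, against medians of 52.7% and 7 over 32851 mouse promoters of the same length. It holds 8 matches to GGGCGG, the core bound by SP factors, which 35.7% of the promoters hold at least once. It holds 5 matches to CACCC, a core bound by KLF factors, found in 57.5% of promoters, and 2 to CCAAT, the NF-Y box, found in 37.4%. Some of these matches overlap one another. It has no match to TGTGGT (RUNX factors, 16.8% of promoters), AAGGTCA (estrogen-related receptors, 4.72%) or CCGGAA (ETS factors, 14.9%). These are matches of letters and say nothing of which factors bind.

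Since Dicer makes microRNAs, the 3' UTRs of the members were searched for 7-base matches to the seeds (bases 2 to 8) of 13 microRNA families common in neurons. Levels of mature microRNAs were not measured. The family of miR-27b-3p had matches in 3 of the 6 genes, so its mature sequence and sites are shown, with that of miR-128-3p, whose seed overlaps it. Capitals mark the seed in the microRNAs and the match in the UTRs.
mmu-miR-27b-3p: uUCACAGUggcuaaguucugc
mmu-miR-128-3p: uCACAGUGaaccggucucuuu
Heg1 first site, chr16:33766997-33767025, plus strand: gcactgttgttACTGTGAacatggtcgtg
Heg1 second site, chr16:33768845-33768873, plus strand: gttcttttattACTGTGAaaaacaccagg
Ccm2 site, chr11:6596493-6596521, plus strand: ccaggtcctctACTGTGAaggagtggaga
Rap1b site, chr10:117814960-117814988, minus strand: tgtagattctcACTGTGActcccttgctt
The Heg1 3' UTR is 4766 bases long, longer than 94.4% of 11514 UTRs of tested genes, and holds 7 matches of 5 families, or 1.47 per kilobase. All matches divided by all bases of the 11514 UTRs gave a rate of 1.36 per kilobase, and 18.3% of these UTRs hold a miR-27b-3p match. The Rap1b UTR holds 5 matches, and its miR-27b-3p and miR-128-3p matches overlap. Rap1a and Ccm2 hold 2 each, Pdcd10 holds 1 and Rasip1 holds 0. A seed match is a description of the sequence and not evidence that the site is used.

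**Figure D1:**
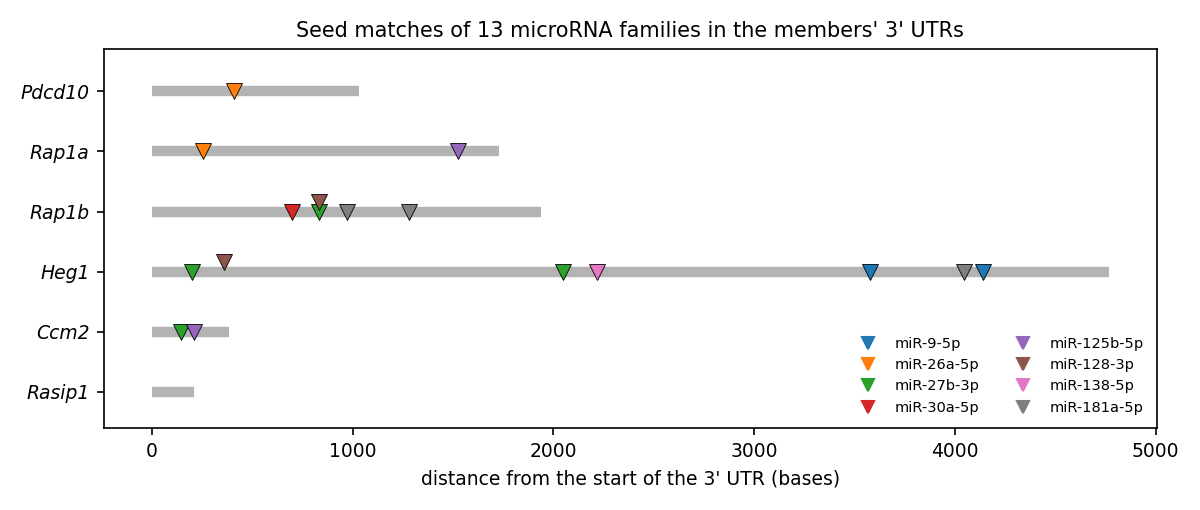
Seed matches of 13 microRNA families along the 3' UTR of each member (grey bars, longest annotated coding transcript; x axis, bases from the start of the 3' UTR; triangles, matches coloured by family). Heg1 has the longest UTR of the 6 genes (4766 bases) and 7 matches, and Rasip1, at 209 bases, has 0.

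The receptor gene was lower in every knockout library. Heg1 (ENSMUSG00000075254.12, chromosome 16, 33684370 to 33771576, plus strand, GRCm38) had 9.27, 9.76 and 8.11 TPM in KO, against 54.99, 48.87 and 49.31 TPM in WT. The groups were far apart, and the lowest WT library was above 5 times the highest KO library. The means were 9.05 ± 0.85 TPM in KO and 51.1 ± 3.41 TPM in WT (SD, n = 3 each), so KO held 0.177 of the WT level. On the log2(TPM + 1) scale, which understates changes of low genes, the KO minus WT difference was -2.37 (SE 0.15, 95% interval -2.72 to -2.03). In bulk RNA, fewer cells of a type and less RNA per cell cannot be told apart. An annotated antisense gene, Gm15657, overlaps Heg1, and whether the counting used strand is not given here, so reads of the pair cannot be told apart.

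The spread of Heg1 within each group was small beside this gap, at a coefficient of variation of 9.37% in KO and 6.69% in WT. Among rows averaging 1 TPM or more, its level was above that of 37.7% of rows in KO and of 75.6% of rows in WT. Of the 13787 rows in the fit, 36 had a larger fall. Without replicate 3 of both groups the difference was -2.33, and with any single library left out it lay between -2.43 and -2.31.

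**Figure D2:**
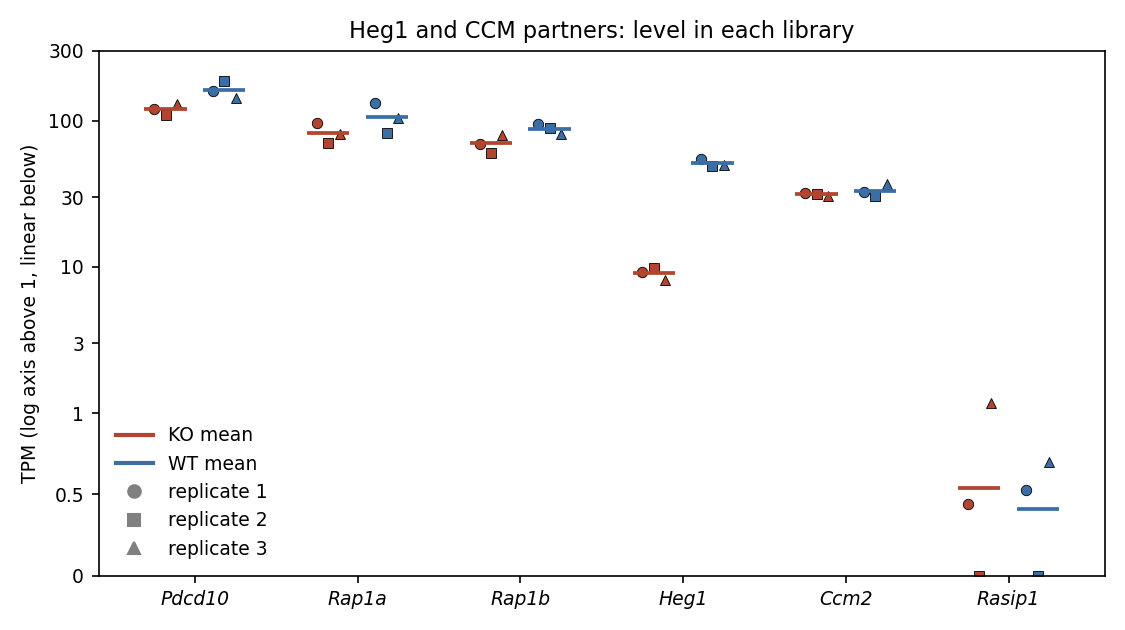
TPM of the 6 members in each library (y axis, log scale above 1 TPM and linear below; KO in red left of WT in blue; symbols, replicates; bars, group means). Heg1 lies at 8.11 to 9.76 TPM in KO and 48.87 to 54.99 TPM in WT, while the groups of Ccm2 and Rap1a overlap.

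The other genes of the CCM complex found in the table, Ccm2 and Pdcd10, showed smaller differences than Heg1. Ccm2, which encodes the adaptor that joins KRIT1 to PDCD10 (chromosome 11, 6546887 to 6596744, plus strand), had 31.76, 31.46 and 30.66 TPM in KO, against 32.70, 30.28 and 36.70 TPM in WT. The groups overlapped, and the log2 difference was -0.08 (SE 0.14, 95% interval -0.39 to 0.23). Pdcd10, which encodes the subunit that binds the kinases STK24 and STK25 (chromosome 3, 75516490 to 75556856, minus strand), had 119.88, 109.66 and 128.97 TPM in KO. In WT it had 158.25, 185.65 and 142.88 TPM, and every KO library was below every WT library. Its mean was 119.5 ± 9.66 TPM in KO and 162.3 ± 21.7 TPM in WT (SD, n = 3 each). The log2 difference was -0.43 (SE 0.13). Of the 50-base stretches of the longest Pdcd10 transcript, 21.3% also occur in the processed pseudogene Gm14253, so its estimate may share reads with that copy.

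The Rap1 genes, which encode near-identical GTPases, had levels that overlapped each other in both groups. Rap1a (chromosome 3, 105727267 to 105801336, minus strand) had 96.26, 70.10 and 80.40 TPM in KO, against 132.36, 82.40 and 103.38 TPM in WT, and the groups overlapped. Rap1b (chromosome 10, 117813871 to 117846035, minus strand) had 69.64, 60.01 and 80.01 TPM in KO, against 94.78, 88.33 and 81.06 TPM in WT. Here every KO library was below every WT library, although the nearest pair, KO replicate 3 and WT replicate 3, differed by little. The log2 differences were -0.35 for Rap1a (SE 0.19) and -0.34 for Rap1b (SE 0.14). Summed, both genes gave 165.9, 130.1 and 160.4 TPM in KO and 227.1, 170.7 and 184.4 TPM in WT. The ratio of Rap1a to Rap1b was 1.19 ± 0.19 in KO and 1.202 ± 0.240 in WT (SD, n = 3 each). Of the 50-base stretches of Rap1a, 9.46% also occur in other genes, mainly the processed pseudogene Gm9392, and none of those of Heg1, Ccm2 or Rap1b do.

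Rasip1, the gene of the endothelial RAP1 effector (chromosome 7, 45627488 to 45639093, plus strand), was close to absent in both groups. It had 0.44, 0 and 1.18 TPM in KO and 0.53, 0 and 0.70 TPM in WT, and its mean of 0.475 TPM kept it out of the fit. A row listed at 0 can be a failed estimate. Rasip1 shares 17.7% of its 50-base stretches with its neighbour Izumo1, which is on the same strand and overlaps it.

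The order of the members changed at one place between the groups. From high to low it was Pdcd10, Rap1a, Rap1b, Ccm2, Heg1 and Rasip1 in KO, and Pdcd10, Rap1a, Rap1b, Heg1, Ccm2 and Rasip1 in WT. In both groups the libraries of Rap1a and Rap1b overlapped, and those of every other pair of neighbours did not. Heg1 had 0.289 ± 0.023 times the TPM of Ccm2 in KO and 1.55 ± 0.18 times in WT (SD, n = 3 each). Set against Pdcd10, Heg1 stood at 0.0764 ± 0.0131 in KO and at 0.319 ± 0.048 in WT. Pdcd10 was at 3.82 ± 0.36 times the TPM of Ccm2 in KO and 4.95 ± 1.12 times in WT.

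In the limma fit over all rows averaging 1 TPM or more, 256 rows were called higher and 437 lower at an adjusted p (Benjamini-Hochberg) below 0.05, which is 5.03% of rows. With median-of-ratios rescaling, these counts were 366 and 400. Of the 5 members in the fit, 1 (Heg1) was called lower, where 3.17% of rows were called lower, and 0 were called higher, where 1.86% of rows were. At an unadjusted p below 0.05, 3 of the 5 were lower, where 14.1% of all rows were, and 0 were higher, where 9.77% of all rows were. The groups did not overlap for 3 of the 5 members, against 28.9% of all rows. All 5 differences were below 0, with a median of -0.35, against a median of -0.05 over all rows. Since this contrast was known when the members were picked, nothing is read from these counts.

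Other genes of the pathway were taken from a list of 55 by role, and 44 of them reached a mean of 1 TPM. Of these, 2 fell in limma (4.55%, beside 3.17% of all rows), 0 rose (beside 1.86% of all rows), and 42 did not pass. Their median log2 difference was -0.16, against -0.05 over all rows. At an unadjusted p below 0.05, 4 of the 44 were higher, where 9.77% of all rows were, and 11 were lower, where 14.1% of all rows were. The groups did not overlap for 14 of the 44 genes (31.8%), close to the 28.9% of all rows.

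The genes that fell were Ctnnb1 and Rapgef5. Ctnnb1, which encodes beta-catenin, the partner of cadherins and of Wnt signalling, had 201.44, 168.72 and 239.99 TPM in KO, against 295.05, 421.44 and 340.63 TPM in WT. Its log2 difference was -0.79 (SE 0.17, limma adjusted p = 0.0325), with every KO library below every WT library. Rapgef5, which encodes an exchange factor that loads RAP1 with GTP, had 44.77, 42.92 and 46.23 TPM in KO, against 60.97, 66.25 and 62.83 TPM in WT. It differed by -0.50 (SE 0.12, limma adjusted p = 0.0463), again with no overlap. Neither call was stable. Ctnnb1 was no longer called without KO replicate 1 (adjusted p = 0.1096), KO replicate 2 (0.109), WT replicate 2 (0.0813) or WT replicate 3 (0.0854), in limma, and over 17 alternatives its adjusted p lay between 0.0261 and 0.200. For Rapgef5 the limma call was lost whichever single library was left out (adjusted p between 0.0619 and 0.142), and over 17 alternatives the values lay between 0.0375 and 0.228.

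**Figure D3:**
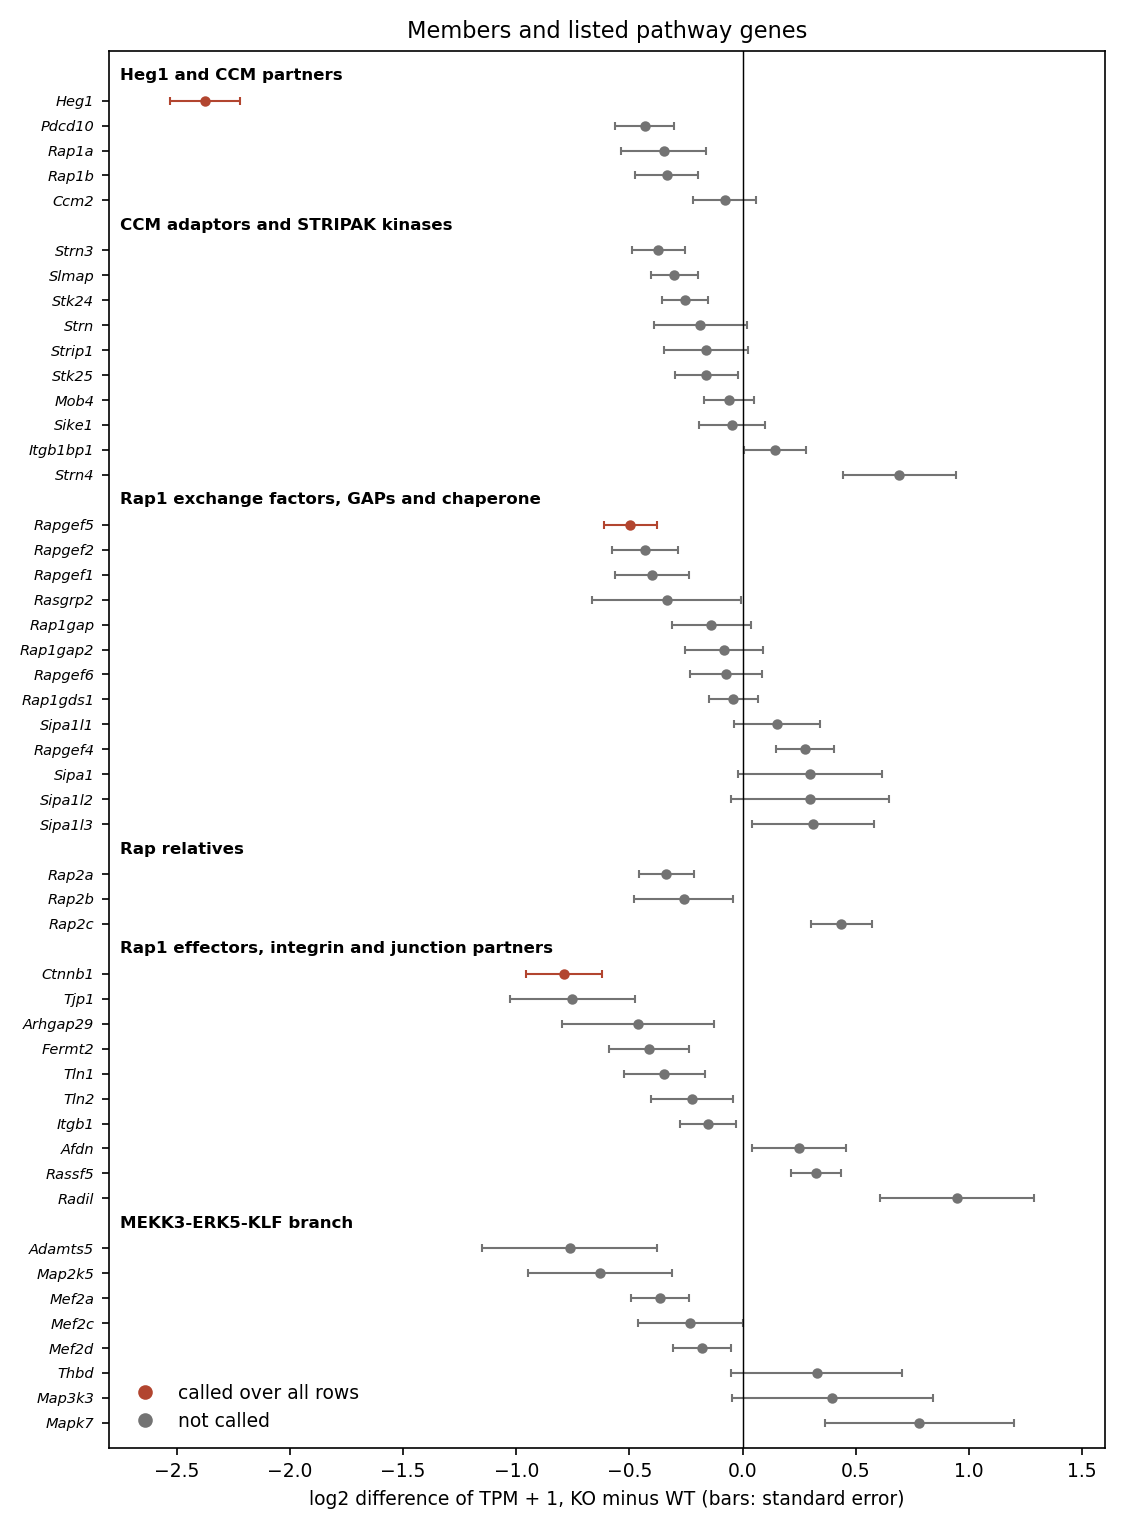
Log2 difference of TPM + 1, KO minus WT, for the 5 members and the 44 listed pathway genes in the fit, grouped by role (points, estimates; bars, standard errors; red, called at an adjusted p below 0.05 over all 13787 rows). Heg1, at -2.37, lies apart from the other genes drawn, among which Ctnnb1 and Rapgef5 were called.

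Of 10 tested adaptors and kinases around the CCM complex, 0 passed limma in either direction, and before adjustment 1 was higher and 3 were lower at p below 0.05, beside 9.77% and 14.1% of all rows. Stk24, the kinase bound by PDCD10, was at 208.1 ± 14.4 TPM in KO and 247.9 ± 1.04 TPM in WT (SD, n = 3 each; limma adjusted p = 0.170). Slmap and Mob4, subunits of the STRIPAK phosphatase complex, were at 95.3 ± 2.41 and 122.7 ± 5.52 TPM in KO, and at 117.7 ± 4.54 and 128.1 ± 8.91 TPM in WT. Outside the naming rule, Itgb1bp1, which encodes the KRIT1 partner ICAP1, was at 48.6 ± 5.51 TPM in KO and 43.8 ± 3.15 TPM in WT. Ccm2l, the relative of Ccm2, was at 0.31 to 0.68 TPM in KO and listed at 0 in each WT library.

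Among 13 tested exchange factors, GTPase-activating proteins and the chaperone of RAP1, Rapgef5 alone was called, and before adjustment 3 were lower and 0 were higher at p below 0.05, beside 14.1% and 9.77% of all rows. Rap1gds1, the chaperone, was at 298.0 ± 26.8 TPM in KO and 306.2 ± 16.5 TPM in WT. Rapgef4, the cAMP-activated exchange factor EPAC2, was at 138.7 ± 3.86 TPM in KO and 115.2 ± 18.03 TPM in WT (limma adjusted p = 0.234). Rasgrp2 was at 52.84, 53.14 and 72.52 TPM in KO and at 102.96, 40.06 and 99.99 TPM in WT, so its WT libraries spread over more than the KO range. Of the RAP2 genes, relatives of RAP1, 0 of 3 passed limma, and before adjustment 1 was higher and 1 was lower at p below 0.05, too few genes to set against 9.77% and 14.1% of all rows. Rap2c was at 96.0 ± 9.43 TPM in KO and 70.8 ± 8.46 TPM in WT (limma adjusted p = 0.0916), and Rap2a at 71.7 ± 4.25 TPM in KO and 91.0 ± 7.93 TPM in WT (limma adjusted p = 0.132). Rap2b was lower in level, at 6.41 ± 0.83 TPM in KO and 7.87 ± 0.97 TPM in WT.

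Of 10 tested effectors, integrin and junction genes, Ctnnb1 was the 1 called in limma, as lower, where 3.17% of all rows were. Before adjustment 2 were higher and 3 were lower at p below 0.05, beside 9.77% and 14.1% of all rows. Itgb1, the integrin beta-1 chain, was at 191.3 ± 20.98 TPM in KO and 212.4 ± 18.7 TPM in WT. Tln2, which links integrins to actin, was at 112.9 ± 16.2 TPM in KO and 133.8 ± 31.4 TPM in WT. Outside the naming rule, Radil, which is related to Rasip1, was at 2.34, 3.04 and 2.44 TPM in KO and at 1.28, 0.49 and 0.91 TPM in WT (log2 difference 0.95, limma adjusted p = 0.136).

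In the branch that the CCM complex restrains in endothelial cells, Klf2, Klf4 and Map3k3, the gene of MEKK3, were little expressed. These and Adamts5 are named outside the rule. Klf2 and Klf4 did not exceed 1.09 and 0.48 TPM in any KO library, or 0.96 and 0.47 TPM in any WT library. Map3k3 averaged 1.85 TPM in KO and 1.15 TPM in WT. Adamts5, also listed in this branch, stood higher, at 2.64 to 6.35 TPM in KO and 5.65 to 14.62 TPM in WT. Of 8 tested genes of this branch, 0 passed limma, and before adjustment 0 were higher and 1 was lower at p below 0.05, where 9.77% and 14.1% of all rows were. Mef2a, Mef2d and Mef2c, transcription factors that ERK5 can act on, were at 115.9 ± 13.2, 42.8 ± 2.19 and 29.0 ± 8.30 TPM in KO. In WT they were at 149.5 ± 13.9, 48.7 ± 3.74 and 33.6 ± 5.94 TPM.

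Markers of other cells were set beside Heg1. Of 12 endothelial markers, Flt1, Cldn5 and Erg were at 0 in all 6 libraries, and 8 of the 12 stayed under 1 TPM in every library. Cdh5, which encodes the endothelial cadherin, was at 0 to 0.36 TPM in KO and at 0 in WT. The 12 genes summed to 20.05 to 28.7 TPM in KO and 14.4 to 20.2 TPM in WT, of which Egfl7, a secreted protein gene, made up most. These sums were above the level of Heg1 in every KO library and below it in every WT library. Without Egfl7 the sums were 2.09 to 6.18 TPM in KO and 2.35 to 2.82 TPM in WT, below the level of Heg1 in every library. A marker sum and the level of a single gene share no scale of cell content. These comparisons therefore do not show which cells the Heg1 transcripts came from.

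Markers of satellite glia, which wrap sensory neuron bodies, were more abundant. The 10 genes summed to 444.0 to 1003 TPM in KO and 952.6 to 1929 TPM in WT, and 3 of the 10 were called lower, where 3.17% of all rows were. Glul, the glutamine synthetase gene on this list, lay the other way, at 212.09, 222.36 and 244.96 TPM in KO and 145.50, 101.97 and 198.67 TPM in WT, with no overlap and no call (limma adjusted p = 0.105). With the mean log2(TPM + 1) of this list as a covariate, the Heg1 difference was -2.46, and with that of the endothelial list it was -2.26. The covariate is thus not the summed TPM, and most genes of the endothelial list were near 0. With so few libraries and list levels that differ between the groups, these fits cannot separate genotype from cell content. The proprioceptor list was not used as a covariate. The 5 proprioceptor markers found in the table summed to 562.5 to 765.7 TPM in KO and 1270 to 1411 TPM in WT. Of these, Pvalb, Runx3, Etv1 and Spp1 were called lower, where 3.17% of all rows were. Pvalb itself, which drives the Cre allele, was at 4.02, 3.69 and 13.98 TPM in KO and at 25.05, 19.69 and 23.11 TPM in WT. KO replicate 3 had the highest Pvalb of its group and the lowest Heg1. Its Etv1 was the lowest of the group (259.9 TPM), and its sum of the 5 markers (658.5 TPM) lay between those of the other KO libraries. Of the remaining lists, mural markers summed to 2.27 to 7.33 TPM in KO and 1.77 to 3.71 TPM in WT, and fibroblast markers to 28.3 to 44.0 TPM in KO and 22.9 to 46.0 TPM in WT. Macrophage markers summed to 3.57 to 5.39 TPM in KO and 6.02 to 8.76 TPM in WT. Schwann cell markers summed to 1039 to 1391 TPM in KO and 447.8 to 527.4 TPM in WT, nearly all of it Pmp22, which neurons also express. Whether the proprioceptor share of the cells has a part in the Heg1 values was not tested.

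**Figure D4:**
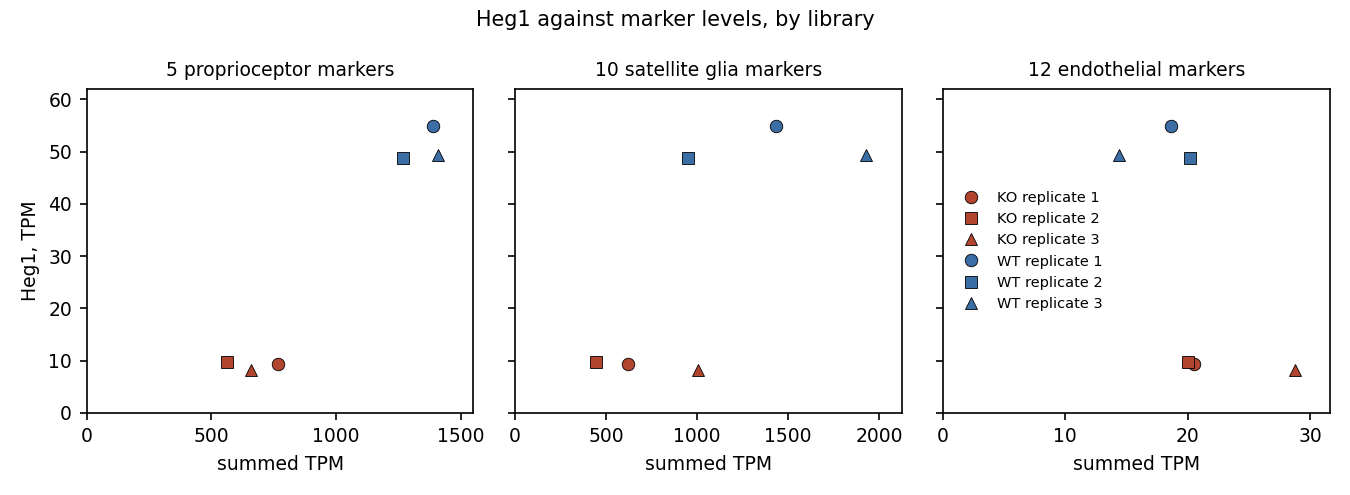
Heg1 in TPM (y axis) against the summed TPM of 5 proprioceptor, 10 satellite glia and 12 endothelial markers (x axes), 1 point per library (red, KO; blue, WT; symbols, replicates). Satellite glia markers lie at 444.0 to 1003 TPM in KO and 952.6 to 1929 TPM in WT. Heg1 lies at 8.11 to 9.76 TPM in KO and 48.87 to 54.99 TPM in WT.

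The profiles most like Heg1 over the 6 libraries were sought among 9859 rows with a symbol that averaged 5 TPM or more. The 5 highest Pearson correlations of log2(TPM + 1) were 1190002N15Rik at 0.997, Atp11a at 0.994, Hs3st2 at 0.993, Cdk14 at 0.992 and Tmem63b at 0.992. Atp11a encodes a phospholipid flippase, Hs3st2 an enzyme that sulfates heparan sulfate, Cdk14 a cyclin-dependent kinase and Tmem63b a membrane ion channel. Each was lower in KO, with means of 22.5, 319.7, 58.0, 37.2 and 122.7 TPM in that order, against 50.7, 698.0, 160.4, 89.6 and 183.8 TPM in WT. With 6 libraries in 2 groups, such a correlation mostly records a shared gap between the groups, and 144 rows exceeded 0.95. Among the members, the correlation with Heg1 was 0.84 for Pdcd10, 0.76 for Rap1b, 0.62 for Rap1a and 0.45 for Ccm2.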

How the data were processed

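RNA was isolated with a PicoPure kit, amplified as cDNA with an Ovation kit, sheared and sequenced, per the labels' protocols. The submitters' processing notes name RSEM 1.2.7, Bowtie2, cutadapt and the build mm10, and the annotation used is not given here. The authors deposited TPM values, 1 column per library, with replicates not pooled, and no depth is kept in them. Amplification from small inputs adds noise, and RSEM divides reads between similar transcripts by a model.

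Differences were fitted with limma 3.58.1 (R 4.3.3). The input was log2(TPM + 1) with a trend on intensity, genotype as the only term, two-sided tests and Benjamini-Hochberg adjustment over the 13787 rows averaging 1 TPM or more. With libraries left out, the filter was applied to those kept. An exact permutation of 3 against 3 libraries cannot go below 0.10, so none was run. Where a name had several rows, the one with the highest mean was used. Loci and 3' UTRs (longest of the coding transcripts) were taken from GENCODE vM21 (GRCm38, the same assembly as mm10). Promoters and microRNAs came from RefSeq on GRCm38.p6, where 5 of the 6 members found had a promoter. Python 3.11.15 was used for the sequences.

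The members, lists, motifs and microRNA families were chosen with earlier results of these data known. Genes named were the members, Dicer1 and Pvalb, listed pathway genes that were called, the 3 highest in each role, and the 5 rows most like Heg1. Others are stated as outside this rule. A further group of listed genes is not reported here. Alternatives tried were other pseudocounts, filters and scalings, a replicate block, marker covariates, and libraries left out.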

Additional observations from a re-analysis of the deposited data

How the results depend on the processing

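The members were picked with this contrast known, so their values under the 17 alternatives are a description. The Heg1 difference lay between -2.49 (pseudocount 0.1) and -1.997 (pseudocount 5) on the log2 scale. Those of Pdcd10, Rap1a and Rap1b lay below 0 in all 17. That of Ccm2 turned to 0.0063 without replicate 3 of both groups and to 0.010 with the satellite glia covariate. Single-library omissions gave Ccm2 -0.14 to -0.01, Pdcd10 -0.52 to -0.33, Rap1a -0.51 to -0.18 and Rap1b -0.44 to -0.23.

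Rows called higher and lower numbered 48 to 348 and 116 to 487 with single libraries left out, 65 and 139 without replicate 3 of both groups, 130 and 248 with no filter on low values, 18 and 32 with the satellite glia covariate, and 96 and 238 with the endothelial covariate. The cause was not tested. Fewer libraries or added terms leave fewer degrees of freedom, which does not apply to the fit with no filter. Without WT replicate 1 the counts were 348 and 487, above the 256 and 437 of the fit reported. Pathway genes called lower numbered 0 to 1 with single libraries left out. They numbered 0 with no filter, without replicate 3 of both groups and with the satellite glia covariate, and 1 with median-of-ratios rescaling, quantile normalization and the endothelial covariate. No pathway gene was called higher by limma in any alternative, where 4 were higher at an unadjusted p below 0.05 in the fit reported.

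Same-numbered libraries deviated together weakly (correlations of 0.049, 0.066 and 0.038), so the numbers were not taken as pairs. With a replicate block, 188 rows were called higher and 341 lower, 0 pathway genes were called lower, and the differences of the members, Heg1 at -2.37 among them, were the same by construction. No group has the 4 libraries that a search for outlying values needs. Depth is unknown, so the precision of low rows such as Rasip1 cannot be given.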
